A study of Mus musculus with 6 samples.

Results

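The clustered histone genes are the mouse genes named by their cluster, Hist followed by a cluster number from 1 to 4 and the letter h, and they encode the linker histone H1 and the core histones H2A, H2B, H3 and H4. Choosing every gene whose symbol has this form gave 70 of the 52550 genes in the files, of which 67 are annotated as protein-coding and 3 as pseudogenes. By class, 6 of them are H1, 20 are H2A, 19 are H2B, 12 are H3 and 13 are H4 genes. By place, 56 lie on chromosome 13 (Hist1), 10 on chromosome 3 (Hist2), 3 on chromosome 11 (Hist3) and 1 on chromosome 6 (Hist4).

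The cells were plasmacytoid dendritic cells from the spleen of C57BL/6 mice, an inbred strain, and their messenger RNA was sequenced. These cells sense nucleic acids and release type I interferon. Both groups received R837 (imiquimod, an agonist of the endosomal receptor TLR7) for 12 hours, 3 libraries without and 3 with added taurine, an amino sulfonic acid abundant in animal cells. No age, sex or taurine dose is known here, unstimulated cells were not analysed here, and the labels do not say whether replicates are separate mice or cultures, so p-values measure only the spread between these libraries.

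Core histones form the protein spool that DNA wraps around, and H1 binds the DNA that links one spool to the next. Most clustered histone genes are transcribed during DNA replication, and their messages end in a short stem-loop, bound by the protein Slbp, in place of a poly(A) tail. The libraries were made with a kit for mRNA, and such kits usually select poly(A) tails, so few reads are expected from messages of that kind. Some clustered genes also make longer, polyadenylated messages, as described in differentiated cells.

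The stem-loop was looked up first, since it marks messages that end without a tail. The transcripts of GENCODE M21 (mm10) were searched on the transcript strand after the stop codon for the 16 letters GGNNCTTNTNAGNNCC, where N is any base. Members were searched over all annotated bases past the stop, however few, and other genes over a window of the first 100. Over the matches, every N position did vary. The motif was found in 46 of the 67 coding members, beginning 21 to 58 bases after the stop codon with a median of 31. Among other protein-coding genes with at least 100 annotated bases past the stop, 6 of 19903 (0.0301%) held it. Hist1h2bc, Hist2h2be, Hist1h2bq and Hist1h2br had at least 100 annotated bases and no match, and the other 17 were annotated for fewer than 100 bases, so that the window was incomplete. The transcripts shown for Hist1h2bc, Hist1h2bq and Hist1h2br have 2 exons, and genomic bases outside the exons were not searched. The stem-loops of the members at the highest levels, and of Hist1h4d and Hist1h3e, to which the comparison returns, are given with 5 bases on each side and the 16 bases of the stem-loop in capitals.
Hist1h1c: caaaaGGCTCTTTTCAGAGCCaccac
Hist3h2a: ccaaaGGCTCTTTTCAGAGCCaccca
Hist2h2aa1: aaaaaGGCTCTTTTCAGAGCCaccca
Hist2h2aa2: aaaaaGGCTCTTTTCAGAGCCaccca
Hist1h3e: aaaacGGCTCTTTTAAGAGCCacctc
Hist4h4: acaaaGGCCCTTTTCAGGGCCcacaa
Hist1h4i: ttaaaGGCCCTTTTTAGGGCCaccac
Hist1h4d: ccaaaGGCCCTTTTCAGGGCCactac
Hist1h4b: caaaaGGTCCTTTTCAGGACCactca

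On mm10 the capital letters lie at chr13:23739512-23739527 on the plus strand for Hist1h1c, chr11:58955172-58955187 on the plus strand for Hist3h2a, chr3:96246032-96246047 on the plus strand for Hist2h2aa1 and chr3:96239784-96239799 on the minus strand for Hist2h2aa2. Those of Hist1h3e are at chr13:23561903-23561918 on the minus strand and those of Hist4h4 at chr6:136803998-136804013 on the minus strand. The other H4 stem-loops shown are at chr13:22040966-22040981 on the minus strand (Hist1h4i), chr13:23581950-23581965 on the plus strand (Hist1h4d) and chr13:23757366-23757381 on the plus strand (Hist1h4b). Each lies in the 3′ untranslated part of its gene. The H4 genes differed from the other classes in the stem: all 34 matches outside H4 began with GGCTC, whereas 10 of 12 H4 matches began with GGCCC and the other 2, among them that of Hist1h4b, with GGTCC. The most frequent form, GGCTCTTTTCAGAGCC, was shared by 26 members of the H1, H2A, H2B and H3 classes, and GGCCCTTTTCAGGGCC by 7 H4 genes.

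Where annotated transcripts run on past the stem-loop, they can end in a tail. Of the 46 members with a match, 23 were annotated for more than 100 bases past it and 23 for 100 or fewer. Hist4h4 had 2445 such bases, Hist3h2a 1643, Hist1h1c 840, Hist1h4d 770, Hist1h3e 369 and Hist1h4i 330, while Hist2h2aa1 and Hist2h2aa2 had 35 each. The poly(A) signal AATAAA stood in the last 50 annotated bases of 14 members, Hist1h1c, Hist3h2a, Hist2h2be and Hist4h4 among them. Among other protein-coding genes with at least 50 bases past the stop, 68.4% held it there. The median level over the 6 libraries was 18.5 normalized counts per kb of exon in the members annotated beyond 100 bases and 15.3 in those that were not, and both sets held high and low members.

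**Figure D1:**
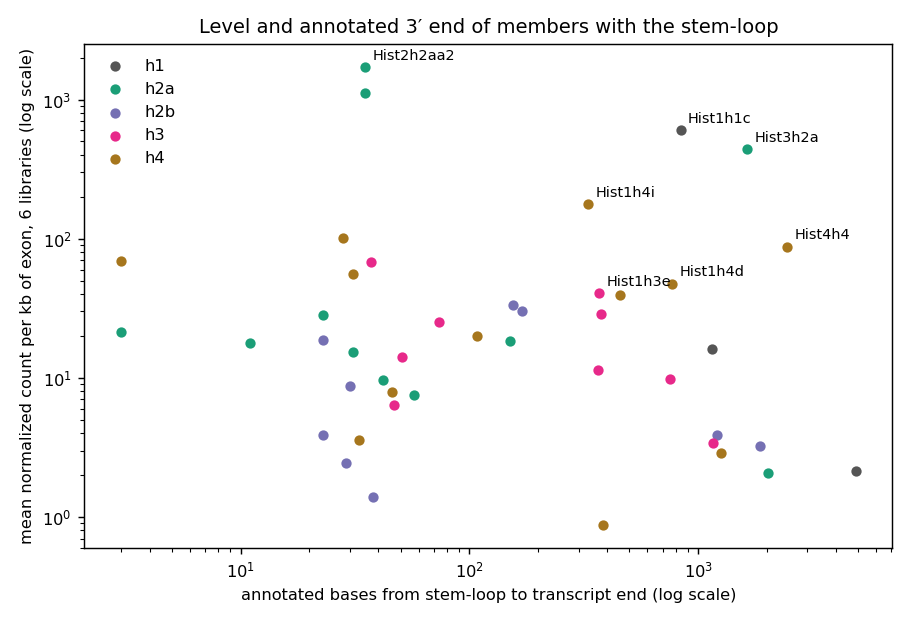
Annotated bases from the stem-loop to the transcript end (horizontal, log scale) against the mean normalized count per kb of exon over 6 libraries (vertical, log scale), 1 point per member with a stem-loop match and a read, coloured by class. Hist1h1c and Hist3h2a lie high with long annotated ends of 840 and 1643 bases, and Hist2h2aa2 lies highest with 35.

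The libraries held 33585080 to 38392654 reads on genes. The histone genes took 3840 to 4756 of those reads in the R837 libraries and 4797 to 5415 in the taurine libraries. Of the 70 genes, 32 reached a normalized count of 10 in at least 3 libraries and were tested, 31 had reads but were not tested, and 7 were at 0 in every library. The 7 were Hist1h1a, Hist1h1t, Hist1h2aa, Hist1h2ba, Hist1h2bm, Hist2h2bb and Hist3h2bb-ps. Among them Hist1h1t, Hist1h2aa and Hist1h2ba are known as testis histones. A count of 0 allows up to 3 reads, which is 0.0781 to 0.0893 CPM (reads scaled to the library total) here and covers counting error only. Hist1h2ag, Hist1h2ai, Hist1h3i and Hist1h3h passed the filter through taurine libraries alone, so the tested genes are not an even sample of the 70.

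Summed over all 70 genes, the R837 libraries held 4487, 4421 and 3998 normalized counts, in the order of their replicate numbers, and the taurine libraries 4843, 4854 and 5748. All taurine libraries lay above all R837 libraries. The means were 4302 ± 266 and 5148 ± 519 (SD, n = 3), a log2 ratio of 0.26. Between 71.0% and 74.7% of each sum came from Hist1h1c, Hist3h2a, Hist2h2aa1 and Hist2h2aa2.

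The classes differed from each other in how far the groups stood apart. The H3 sum was 115, 159 and 134 with R837 and 303, 235 and 245 with taurine. The groups did not overlap, and the means were 136 ± 21.9 and 261 ± 36.6, a log2 ratio of 0.94. The H2A sum was 2503, 2271 and 2176 against 2794, 2724 and 3226, also without overlap, with a log2 ratio of 0.33. The H1 sum, 872, 968 and 907 against 953, 941 and 1299, overlapped between groups. The H2B sum was 425, 373 and 272 against 222, 337 and 336, and the H4 sum 573, 650 and 509 against 571, 616 and 641, and both overlapped. Their log2 ratios were -0.26 and 0.08. Sums received no test, since genes were taken into them with earlier results known.

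**Figure D2:**
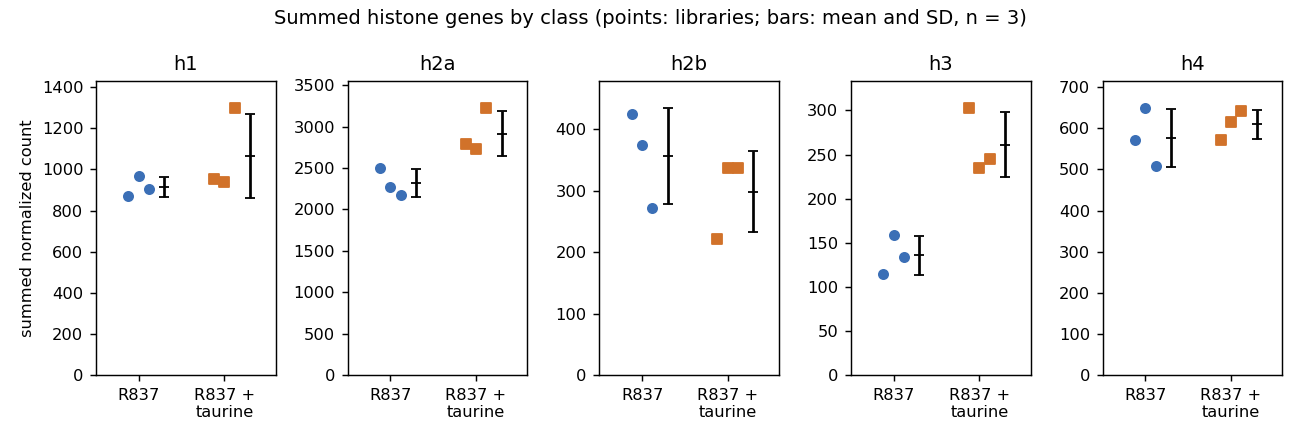
Summed normalized count (vertical, from 0) of the H1, H2A, H2B, H3 and H4 genes in each library, R837 as circles and R837 plus taurine as squares, with mean and SD (n = 3). The H3 sums lie at 115 to 159 and at 235 to 303, and the H1, H2B and H4 sums overlap between groups.

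Per gene, limma on log2(normalized count + 1) over 15265 genes, with Benjamini-Hochberg adjustment over all of them and an adjusted p under 0.05 as the call, called 1 histone gene higher with taurine, Hist1h4d, and none lower. At an unadjusted p under 0.05 there were 12 of the 32 histone genes, 11 of them higher, beside 3622 of all 15265 genes, and edgeR called 1 histone gene, also Hist1h4d. DESeq2 called none of the 7 members to which it gave an adjusted p, and Hist1h4d was not one of these. Of all tested genes 6.41% were called, 3.75% as higher and 2.66% as lower, so 1 of 32 is a share near the background. The median log2 change was 0.40 over the 32 tested histone genes and -0.01 over all tested genes. All taurine libraries lay above all R837 libraries for 13 of the 32, where 14.6% of all tested genes did, and below for 1, Hist4h4, where 15% did. The 13 and the 11 include Hist1h2ag, Hist1h2ai, Hist1h3i and Hist1h3h, which passed the filter through taurine libraries alone. That selection raises both counts and the median, and near-identical copies are not independent of each other. Among the 63 members with any read, all taurine libraries lay above for 20 and below for 1. The shares were 10.6% and 10.7% of all genes with a read. No test of the set was run.

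**Figure D3:**
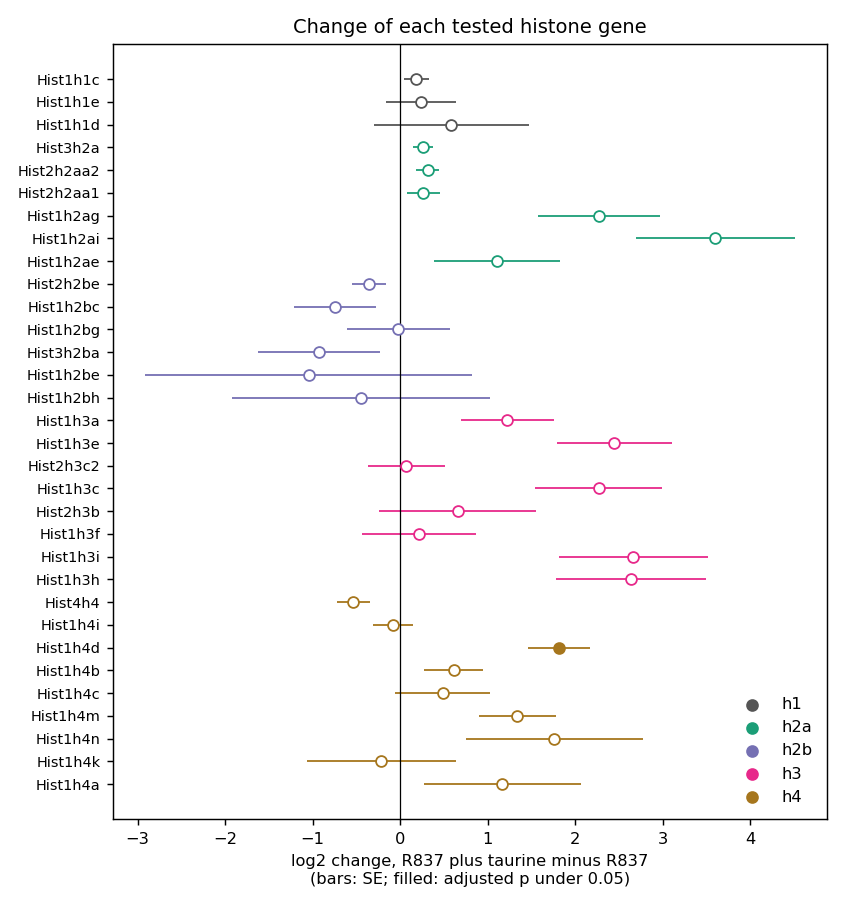
log2 change of the 32 tested histone genes, R837 plus taurine minus R837 (horizontal), with its SE (n = 3 per group), coloured by class, with a filled point for an adjusted p under 0.05. Hist1h4d is the 1 filled point at 1.81, and the H2B genes lie at or left of 0.

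Hist1h1c encodes a linker histone that is made outside S phase as well, and it held most of the H1 sum. Its normalized counts were 831, 928 and 865 with R837 and 891, 899 and 1222 with taurine. The 2 groups overlapped and taurine replicate 3 stood highest. The log2 change was 0.18 ± 0.14 (SE, n = 3 per group; limma adjusted p = 0.472). Hist1h1e, another somatic linker histone, had 29.2, 36.6 and 20.8 against 36.3, 26.7 and 38.2, and Hist1h1d had 11.3, 3.85 and 20.8 against 20.2, 4.76 and 35.0. Both overlapped between groups. Hist1h1b, also a somatic linker histone and chosen after its values were seen, was not tested: it had 0 reads in each R837 library and 5, 12 and 4 reads in the taurine libraries.

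The H2A class held 3 genes at high level. Hist3h2a had 940, 865 and 771 normalized counts with R837 and 1098, 992 and 996 with taurine. Every taurine library was above every R837 library, but the log2 change of 0.26 ± 0.11 did not pass (limma adjusted p = 0.200). Hist2h2aa2 had 813, 742 and 867 against 921, 938 and 1160, again without overlap (log2 change 0.31 ± 0.13, limma adjusted p = 0.177). Hist2h2aa1 had 691, 605 and 482 against 617, 629 and 899, with overlap (limma adjusted p = 0.436). The coding sequences of Hist2h2aa1 and Hist2h2aa2 are identical, so reads cannot be split between them with certainty. Their summed count was 1504, 1347 and 1349 against 1538, 1567 and 2059. Per kb of exon these were the highest levels of any member: Hist2h2aa2 went from 1529 to 1906 and Hist2h2aa1 from 1011 to 1220, while Hist1h1c went from 561 to 644 and Hist3h2a from 400 to 479.

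All 20 H2A genes share exon bases with another annotated gene. Hist2h2aa1 is overlapped by the antisense gene Gm20633, at 703 ± 72.7 normalized counts with R837 and 990 ± 34.7 with taurine, and Hist2h2aa2 by Gm20632, at 781 ± 68.6 and 1110 ± 131 (SD, n = 3). No source used here states the strand setting of the counting, so reads of each pair cannot be told apart. With all overlapping genes added, the log2 ratio of the sums was 0.34 for Hist2h2aa1 and 0.41 for Hist2h2aa2.

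The H2A genes of chromosome 13 were low but stood apart between the groups. The 15 genes, among them the pseudogenes Hist1h2aj and Hist1h2al, summed to 51.9, 54.9 and 53.1 normalized counts with R837 and to 145, 162 and 171 with taurine. Hist1h2al lies at chr13:51202727-51203065, away from the cluster. Chosen after its values were seen, it had means of 10.3 with R837 and 10.0 with taurine. The lowest taurine library was above the highest R837 library, and the log2 ratio of the means, 53.3 ± 1.5 and 159 ± 12.9 (SD, n = 3), was 1.58. Chosen after its values were seen, Hist1h2ai had 0.943, 0 and 4.16 against 25.2, 24.7 and 25.5 (log2 change 3.60 ± 0.91, limma adjusted p = 0.0522). It missed the threshold here and passed it with a pseudocount of 5 (adjusted p = 0.0297), without R837 replicate 3 (0.0276) and with overlapping genes added (0.0476). Hist1h2ai was called in no other setting. Its limma adjusted p was 0.109 and 0.117 without R837 replicates 1 and 2, and 0.146 to 0.168 without 1 taurine library. It passed the filter through taurine libraries alone. Hist1h2ag, chosen likewise, had 1.89, 5.78 and 5.21 against 18.2, 25.7 and 25.5 (limma adjusted p = 0.0880). The nearest member to Hist1h2ai is 98.7% identical in its coding sequence, and 37 of the 70 genes have a copy at 98% or more, so values of single low genes are uncertain.

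**Figure D4:**
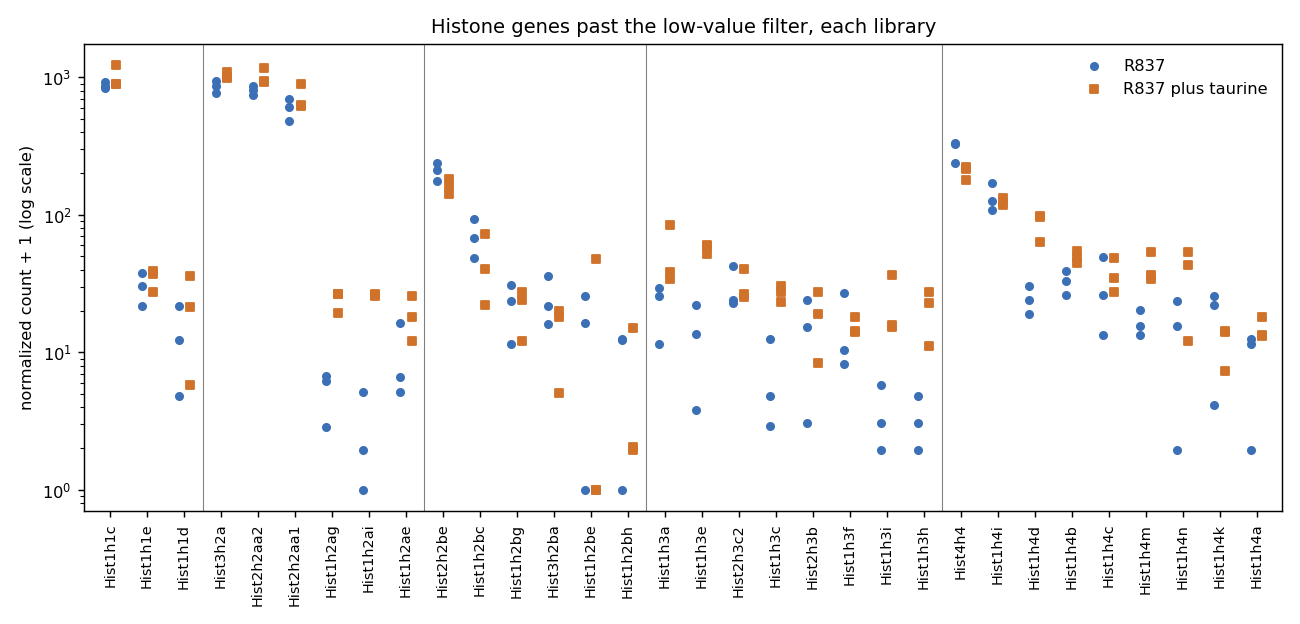
Normalized count + 1 (vertical, log scale) of each of the 32 tested histone genes in each library, R837 as circles and R837 plus taurine as squares, ordered H1, H2A, H2B, H3, H4. Hist1h1c, Hist3h2a, Hist2h2aa1 and Hist2h2aa2 stand above all others, and the Hist1h4d squares at 62.8 to 96.6 lie clear of its circles at 17.9 to 29.2.

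H2B was the class whose sum had a negative log2 ratio that overlapped between groups. Hist2h2be, which lacks the searched stem-loop and whose last annotated bases hold AATAAA, had 239, 209 and 174 normalized counts with R837 and 141, 161 and 180 with taurine. Only taurine replicate 3 reached into the R837 range, and the log2 change was -0.36 ± 0.19 (limma adjusted p = 0.306). Hist1h2bc, also without a match, had 91.5, 66.4 and 47.9 against 21.2, 71.4 and 39.3 (limma adjusted p = 0.378). Hist1h2bg had 22.6, 29.8 and 10.4 against 11.1, 22.8 and 26.5, with a log2 change of -0.02 ± 0.59. Its groups overlapped throughout. The 15 H2B genes of chromosome 13 summed to 171, 130 and 77.0 against 76.7, 157 and 139, with overlap, unlike the 15 H2A genes of that chromosome. That difference between the classes was not tested.

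The H3 genes of the clusters encode the replication-coupled forms of H3. Hist1h3a had 24.5, 10.6 and 28.1 normalized counts with R837 and 83.8, 37.1 and 32.9 with taurine. The groups did not overlap, with taurine replicate 1 highest (log2 change 1.22 ± 0.53, limma adjusted p = 0.207). Hist1h3e had 2.83, 21.2 and 12.5 against 58.6, 59.0 and 51.0, far outside the R837 range (log2 change 2.45 ± 0.65, limma adjusted p = 0.0617). It passed with a pseudocount of 5 (adjusted p = 0.0420) and in no other setting. With 1 library left out, its limma adjusted p was 0.0649 to 0.156. Hist2h3c2, on chromosome 3, had 41.5, 23.1 and 21.9 against 24.2, 25.7 and 39.3, and its log2 change of 0.07 ± 0.44 turned to -0.07 once length and GC trends were removed.

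The H3 sums were also taken by chromosome. The 9 H3 genes of chromosome 13 summed to 55.7, 99.1 and 106 with R837 and to 250, 189 and 187 with taurine, a log2 ratio of 1.26 without overlap. The 3 on chromosome 3 summed to 59.4, 59.7 and 28.1 against 52.5, 45.7 and 58.4, with overlap. Chosen after their values were seen, Hist1h3c, Hist1h3i and Hist1h3h had log2 changes of 2.27, 2.66 and 2.64 and limma adjusted p of 0.0997, 0.0985 and 0.104. None of them passed here. Hist1h3c passed without R837 replicate 3 (limma adjusted p = 0.046) and in no other setting. Hist1h3i and Hist1h3h passed the filter on low values through taurine libraries alone.

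Hist1h4d was the called gene, and it lies on mm10 at chr13:23581598-23582735 on the plus strand. It encodes H4, and its stem-loop is the commonest H4 form. Its normalized counts were 17.9, 23.1 and 29.2 with R837 and 94.9, 62.8 and 96.6 with taurine, from 19, 24 and 28 reads and from 94, 66 and 91 reads. The lowest taurine library was above the highest R837 library. The means were 23.4 ± 5.62 and 84.8 ± 19.0 (SD, n = 3), and the log2 change was 1.81 ± 0.35 (limma adjusted p = 0.0229). With any one of the libraries left out, the call remained only without R837 replicate 3. The adjusted p was 0.0692 and 0.0817 without R837 replicates 1 and 2, and 0.0806, 0.0526 and 0.0979 without taurine replicates 1, 2 and 3. With the replicate block it was 0.0534, with no filter on low values 0.0522 and in limma without trend 0.0844, and the log2 change stayed between 1.64 and 2.01 in the fits that left out 1 library.

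The H4 genes at the highest normalized counts did not share this direction. Hist4h4, the single Hist4 gene, had 328, 331 and 236 with R837 and 177, 222 and 214 with taurine. Every taurine library was below every R837 library, but the log2 change of -0.54 ± 0.19 did not pass (limma adjusted p = 0.130). Hist1h4i had 107, 169 and 125 against 131, 124 and 117, with overlap (log2 change -0.08 ± 0.23, limma adjusted p = 0.869). Per kb of exon Hist1h4i led the class at 184 and 170, while Hist4h4 went from 104 to 71.4 and Hist1h4d from 20.6 to 74.5. Hist1h4b, shown above for its stem and chosen after its values were seen, had 37.7, 25.0 and 32.3 against 53.5, 43.8 and 47.8 (limma adjusted p = 0.319). The identical copies Hist1h4m and Hist1h4n, chosen likewise, summed to 34.9, 20.2 and 29.2 against 46.4, 75.2 and 106, without overlap.

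The 11 H4 genes of chromosome 13 summed to 244, 319 and 264 with R837 and to 383, 386 and 427 with taurine, a log2 ratio of 0.53. The whole chromosome 13 set of 56 genes summed to 1394, 1571 and 1408 against 1808, 1836 and 2223, a log2 ratio of 0.42 without overlap. Without Hist1h1c, its most abundant gene, the other 55 summed to 563, 643 and 542 against 917, 938 and 1001, a log2 ratio of 0.71. Hist2 had a log2 ratio of 0.23 with overlap, Hist3 of 0.24 without overlap and Hist4 of -0.55 in the other direction. Differences between the clusters were not tested.

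**Figure D5:**
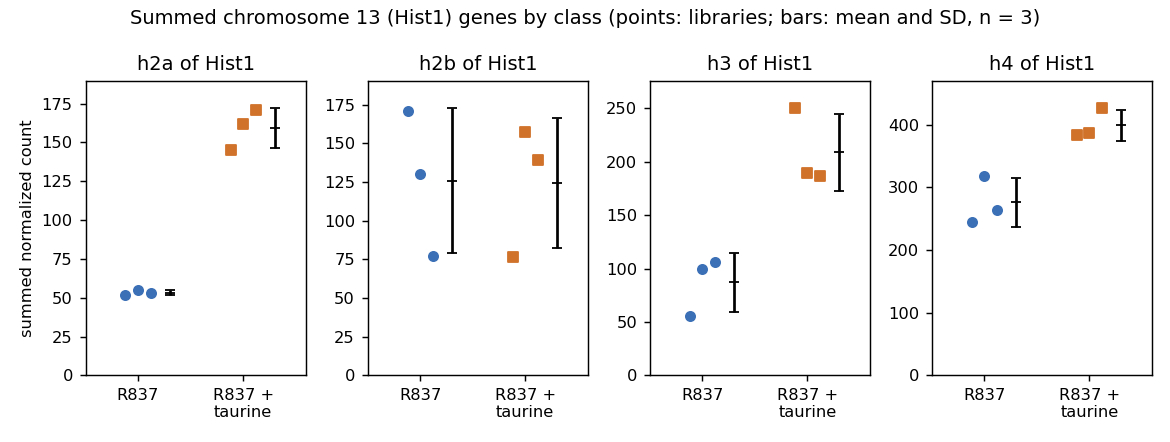
Summed normalized count (vertical, from 0) of the chromosome 13 H2A, H2B, H3 and H4 genes in each library, R837 as circles and R837 plus taurine as squares, with mean and SD (n = 3). The H2A sums lie at 51.9 to 54.9 and at 145 to 171, and the H2B sums overlap.

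Members near the low-value filter had few reads. Just inside it, Hist1h2bh had 11.3, 11.6 and 0 against 14.1, 0.952 and 1.06 normalized counts, and Hist1h2be had 24.5, 15.4 and 0 against 0, 0 and 46.7. Just outside it, Hist1h3d had 7.55, 4.81 and 34.4 against 11.1, 6.66 and 9.55, and Hist1h2ap had 1.89, 2.89 and 5.21 against 19.2, 7.62 and 25.5. Taurine libraries stood above R837 libraries for Hist1h2ap alone of these 4. Hist1h2ag, Hist1h2ai, Hist1h3i and Hist1h3h were also just inside the filter, through taurine libraries alone. For each of them every taurine library lay above every R837 library.

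Genes outside the clusters that make or handle histones were set beside them, in lists also chosen with earlier results known. The genes listed as replication-independent histones, most of which make messages with a poly(A) tail, are far more abundant. These 11 genes summed to 91658 ± 5459 with R837 and 105596 ± 2731 with taurine. Of 10 tested, 2 were called higher and none lower, beside 3.75% and 2.66% of all tested genes. The median log2 change was 0.18. H3f3a, which encodes H3.3, rose from 12453 ± 339 to 16890 ± 99.7 (log2 change 0.44, limma adjusted p = 0.00675) and stayed called in 6 of 6 fits that left out a library. H2afj, an H2A variant, rose by a log2 change of 0.28 (limma adjusted p = 0.0495) and was kept in 1 of 6. H1f0, a linker histone of resting cells, had a log2 change of 0.25 (limma adjusted p = 0.0763). H3f3b, the second H3.3 gene, had 0.15 (adjusted p = 0.246), H2afz 0.21 (0.253) and Cenpa, the centromeric H3, -0.35 (0.131).

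Of 19 genes for transcription, 3′ end processing and decay of histone messages, none was called higher and 1 lower. Over all tested genes 6.41% were called in either direction, so 1 of 19 is a share near the background. Npat, the coactivator of clustered histone genes, had 913, 923 and 911 normalized counts with R837 and 683, 718 and 689 with taurine. The groups were far apart, but the log2 change of -0.39 ± 0.10 only just passed (limma adjusted p = 0.0496) and was called in 0 of 6 fits that left out a library. Slbp, the stem-loop binding protein, had 1435 ± 102 and 1390 ± 124 (log2 change -0.05, limma adjusted p = 0.831). Cstf2, Ncbp1 and Lsm10 had log2 changes of -0.28, -0.25 and 0.40 and did not pass. The median of the list was -0.10.

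Of 20 histone chaperones, 3 were called higher and none lower, beside 3.75% and 2.66% of all tested genes. The median was -0.10. Chaf1b, a subunit of the factor CAF-1 that places new H3 and H4 on replicated DNA, rose from 58.2 ± 17.6 to 138 ± 16.3 normalized counts (log2 change 1.27, limma adjusted p = 0.0378). Nasp, which holds free H3 and H4, rose from 1347 ± 150 to 1966 ± 94.3 (log2 change 0.55, adjusted p = 0.0219). Daxx, a chaperone of H3.3, rose from 12390 ± 681 to 17029 ± 1350 (log2 change 0.46, adjusted p = 0.0147). These were kept in 1, 1 and 2 of the 6 fits that left out a library. Atrx, the partner of Daxx, had a log2 change of -0.55 (limma adjusted p = 0.0644).

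Of 30 genes of S phase, none was called higher and 1 lower, beside 3.75% and 2.66% of all tested genes. The median was 0.04. Tk1, thymidine kinase, had 2810, 3005 and 3384 normalized counts with R837 and 2291, 2478 and 2283 with taurine, a log2 change of -0.38 (limma adjusted p = 0.0478) that was called in 0 of 6 fits that left out a library. Mki67, which marks dividing cells, had 5601, 6398 and 4788 against 4330, 4491 and 4034 (log2 change -0.38, adjusted p = 0.0743), and Ccna2, the S phase cyclin, had a log2 change of -0.47 (adjusted p = 0.0788). Mcm6, a subunit of the replicative helicase, had 2017, 1987 and 1762 against 2156, 2198 and 2210, with every taurine library above (log2 change 0.19, limma adjusted p = 0.231). The list summed to 27413 to 29809 with R837 and 26114 to 27795 with taurine.

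Markers of the cells that a spleen preparation can hold were set beside these values. In bulk RNA, fewer cells of a type and less RNA per cell cannot be told apart. Over all tested genes, 3.75% were called higher and 2.66% lower. The plasmacytoid dendritic cell markers summed to 291645 to 325977 with R837 and 299811 to 304861 with taurine, and all 12 were tested. Among them 4 were called lower (Runx2, Tcf4, Pacsin1 and Klk1) and 2 higher (Bst2 and Cox6a2), and Irf8 and Spib, which were not called, had the largest counts. The 8 erythroid markers summed to 102 to 148 with R837 and to 200 to 279 with taurine, with 1 of 5 tested called (Hba-a1). The 7 markers of neutrophils and their precursors summed to 1172 to 1707 and to 1717 to 2079, with 1 of 7 called (Ngp). Groups were apart for Ngp alone. Camp and Ltf had lower means with taurine (48.8 against 71.4, and 188 against 209), and the others had higher means. T cell sums were 471 to 513 and 389 to 439 with Cd3d and Cd3g at 0. Most of these sums was Cd5, while Lck went the other way, from a mean of 54.3 to 85.2. B cell sums overlapped at 1830 to 2991 and 2145 to 2870. The 7 conventional dendritic cell markers summed to 34573 to 36594 and 28855 to 30611, with 2 called lower (Clec9a and Flt3). Flt3, Itgax and Sirpa held most of these sums. Groups were apart for 3 of the 7 markers with taurine below and for 1, Batf3, with taurine above (means 157 and 232). The 7 monocyte or macrophage markers summed to 12855 to 14434 and 14601 to 17381, with 1 called higher (Fcgr1) and Vsig4 at 0. Cd68 held most of these sums. Of the 6 tested, groups were apart for 3 with taurine above and for 1, Adgre1, with taurine below (means 1938 and 1422). NK cell sums overlapped, with Gzma and Prf1 at 0, and so did plasma cell sums, with Tnfrsf17 at 0. Klrk1 held most of the NK cell sums and Xbp1 most of the plasma cell sums. Sums carried by so few genes do not measure the content of a cell type. The part of these cells in the histone values was not tested.

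Gene length moved with the groups as well. Deviations from the gene means were ranked against exon length across genes in each library, and Spearman's rho was 0.0443 to 0.147 in the R837 libraries and -0.203 to -0.1 in the taurine libraries. Annotated exon length of the histone genes ran from 312 bases (Hist1h4k) to 7425 (Hist1h1d). Hist4h4 (2863 bases) and Hist2h2be (2620), with negative log2 changes, and Hist3h2a (2146), with a positive one, were among the longer. How length goes with direction across the members was not tested. With length and GC trends removed, the log2 ratio was 0.83 for the H3 sum, 1.47 for the chromosome 13 H2A sum and 0.27 for the H2A sum. Among the most abundant members, the log2 change went from 0.18 to 0.07 for Hist1h1c and from 0.26 to 0.14 for Hist2h2aa1. It went from 0.31 to 0.19 for Hist2h2aa2 and, in the other direction, from 0.26 to 0.31 for Hist3h2a.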

How the data were processed

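The authors deposited for each library a normalized count per gene (a signal value), per the file headers. Divided by its library's smallest step, each value came to a whole number of reads (tolerance 0.001), and these reads were used where counts were needed. Per the submitters' processing notes, the tools include HISAT2 and StringTie and the builds mm10 and mm8, without role or version. No source used here names the counting tool, its strand setting or its treatment of reads that match several copies. Of 52403 gene identifiers shared with GENCODE M21 (mm10), 95.2% had the same coordinates, as did all 70 histone genes, so coordinates are taken as mm10.

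The 15265 genes that reached 10 in 3 or more of the 6 libraries were tested as log2(normalized count + 1) with limma 3.58.1 in R 4.3.3 (trend, two-sided, 1 group term, Benjamini-Hochberg, adjusted p under 0.05); the fit was tested on simulated data. The pseudocount draws low values together. edgeR 4.0.16 and DESeq2 1.42.0 on the recovered reads were alternatives. No 2 libraries of a group agreed within sampling noise. The genes and lists were chosen with earlier results of these data known. Values are printed for called members, the 3 highest members of each class, members near the filter, called list genes and up to 4 with the smallest p per list, and for Slbp, H2afz, H3f3b and Mki67; single members outside this rule are named as chosen after their values were seen. Sums carry no test. Protein sequences were not used here.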

Additional observations from a re-analysis of the deposited data

How the results depend on the processing

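Over all genes 979 were called, and 547 with no filter on low values, 1842 in DESeq2, 4 in limma without trend, 615 with the replicate block and 597 with the replicate block and length and GC trends removed, and 134 to 1477 when 1 library was left out. Histone genes called numbered 1, and 3 with a pseudocount of 5 (Hist1h2ai, Hist1h3e, Hist1h4d) and 2 with overlapping genes added. They numbered 0 with no filter, in DESeq2, in limma without trend and in both fits with the replicate block, and 0 to 3 with 1 library left out. DESeq2 gave an adjusted p to 7 members, and Hist1h4d was not one of them. Related list genes called numbered 7, and 3 with no filter, 12 in DESeq2, 0 in limma without trend, 4 with quantile normalization, 3 with the replicate block, 4 with the block and trends removed, and 1 to 8 with 1 library left out. Replicate numbers gave no pairing: deviations of same-numbered libraries correlated at -0.00264, -0.00681 and -0.0434. Among log2 ratios of the class sums, H3 went from 0.94 to 1.24 with members past the filter, whose choice favours members with reads in taurine libraries. The other class sums moved by less than the spread between libraries. Of the chromosome 13 sums, H2A went from 1.58 to 2.19 and H3 from 1.26 to 1.70 with members past the filter, and H2A to 1.47 with trends removed. An H2A sum of members without an overlapping gene had no value, as there are none. Signs turned for members far from the threshold: the log2 change of Hist1h2bg was 0.037 with quantile normalization and that of Hist2h3c2 was -0.074 with trends removed, with or without the block. With 1 library left out, Hist1h2bg ranged from -0.44 to 0.34, Hist2h3c2 from -0.14 to 0.36, Hist1h1d from -0.0013 to 1.34 and Hist1h4i from -0.23 to 0.10. The cause was not tested. Depth limits the members outside the leading 4, many of which rest on under 30 reads per library. The overlapping-gene and identical-copy settings and those of the chromosome 13 sums were chosen after seeing the data.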

Other observations

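The reads of some untested histone genes lay in few libraries, and these values belong to no comparison. Hist1h3g, a replication-coupled H3 gene, had 21 reads in R837 replicate 2 and 0 in each other library. Hist1h2bj had 8 reads in R837 replicate 3, 14 and 31 in taurine replicates 1 and 2, and 0 in the other 3 libraries.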
